A study of Mus musculus with 6 samples.

Results

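Innate sensing and inflammasome genes were examined by ATAC-seq in mouse fetal liver cells transformed by MLL-ENL, comparing dKO cells, which lack Cebpa and Cebpb, with WT cells, which retain them. ATAC-seq measures chromatin accessibility, because the Tn5 transposase inserts sequencing adapters preferentially into open DNA. The 40 genes encode Toll-like receptors, their adaptors and kinases, NOD-like receptors and inflammasome effectors, interleukin 1 family cytokines, C-type lectin and TREM receptors, and sensors of cytosolic nucleic acids. A listed region was counted for a gene where it overlapped the annotated gene body extended by 25 kb on each side, and a region in several such windows went to the gene with the nearest start site. By this rule 17 of the 10016 listed regions fell at 12 of the 40 genes, and the other 28 genes had none. Change is the log2 mean of normalised reads in dKO minus that in WT throughout, so that a positive value is higher accessibility in dKO.

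Pattern recognition receptors detect conserved microbial or danger-associated molecules, and many of them, though not only there, act in myeloid cells. Toll-like receptors signal through the adaptors MyD88 and TRIF (encoded by Ticam1) and the IRAK kinases to NF-kB and interferon regulatory factors. Cytosolic sensors such as NLRP3 and AIM2 assemble inflammasomes, in which caspase-1 is activated, processes interleukin 1β and interleukin 18 and cleaves gasdermin D, the pore-forming protein of pyroptosis. C/EBPα and C/EBPβ are transcription factors of the granulocyte-macrophage lineage and of inflammatory gene regulation.

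The series holds 6 libraries in 3 groups of 2. WT cells came from Cebpa fl/fl/Cebpb fl/fl fetal livers transformed with a retroviral MLL-ENL fusion oncogene, and their labels name no further vector. The dKO cells were derived from such cells with TAT-Cre, carry the Cebpa KO and Cebpb KO genotype and expressed GFP, and dKO-LAP* cells expressed GFP and the rat C/EBPβ isoform LAP* in addition. The lines were expanded from colonies and kept in murine interleukin 3. Values for dKO-LAP* were not analysed here, so the comparison rests on the 4 WT and dKO libraries. The dKO lines grew out as rare surviving clones. In every dKO clone recovered, the paper found high levels of another family member, C/EBPε. It proposes that C/EBPε partly compensates for the loss of Cebpa and Cebpb. The labels do not say whether the 2 dKO libraries came from the same clone. In this comparison the deletion, the C/EBPε expression, the clonal origin and the vector cannot be told apart.

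The deposited values are the authors' means per group, with no value per library, so that no spread between replicates and no depth per library could be given, and no test was run here. The P-values that the authors deposited per region served only as the threshold of the list. Each region in the table had passed the authors' corrected P-value of 0.05, and regions that did not pass are not listed. A gene without a region is therefore not shown to be unchanged or closed. The deleted genes were inspected first. The region over the Cebpa start and coding sequence had log2 means of 9.99 (WT) and -0.15 (dKO, the lowest value in the table), and the regions at and 800 bp from the Cebpb start fell from 8.60 to 3.37 and from 7.38 to -0.15. The dKO mean of 3.37 at the Cebpb start is above a floor of 1.43 on the log2 scale. This floor stands for 3 raw reads per library where the lowest value in the table, -0.15, is taken as 1 raw read per library, since normalisation makes a raw read worth slightly less than 1 normalised read. In the windows of these genes, 2 further regions were higher in dKO, by 3.19 at 20576 bp from the Cebpa start and by 1.99 at 24326 bp from the Cebpb start. Of the granulocyte-macrophage progenitor and myeloid markers, 8 of 10 had listed regions, with 17 higher and 1 lower in dKO (94.4% higher). Over the whole table, 60.3% of listed regions were higher, and 35.2% of protein-coding genes had a region. None of 4 T cell markers had one, and 1 of 3 B cell markers, Pax5, had 4 lower regions. At 1 of 3 matched erythroid markers, Epor, a region was higher, and at 1 of 3 mast cell markers, Mcpt8, a region was lower. The nearest protein-coding starts of these regions were those of Swsap1 and Ctsg, not of the markers. A region at each of the myeloid markers Elane, Itgam and Mpo was also nearest to another gene's start. These lists hold changed regions only, so they do not test the identity of the cells, and their part in the results below was not tested.

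The sequences of 8 regions are shown as examples, chosen after their values were seen, so that each string found and both lower regions are represented. They are 200 bp windows of the plus strand of mm10 (GRCm38.p6), taken about the centre of each region, except for Nlrc5, where the window was placed about the string in the 5′ part of the region and starts shortly before it. Capitals mark matches to consensus strings on either strand: AP-1 (TGACTCA or its reverse complement TGAGTCA), C/EBP (TTGCNNAA or TTACNNAA), PU.1 (GAGGAAGT), RUNX (AACCACA) and IRF (GAAA, any 2 bases, GAAA). A match is a description of the letters and not evidence that the factor binds.
Tlr4 intronic region, chr4:66857111-66857310: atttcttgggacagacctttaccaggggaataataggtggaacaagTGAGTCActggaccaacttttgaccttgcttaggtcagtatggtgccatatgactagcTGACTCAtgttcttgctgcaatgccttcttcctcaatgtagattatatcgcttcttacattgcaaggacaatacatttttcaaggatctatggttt
Irak3 intronic region, chr10:120151775-120151974: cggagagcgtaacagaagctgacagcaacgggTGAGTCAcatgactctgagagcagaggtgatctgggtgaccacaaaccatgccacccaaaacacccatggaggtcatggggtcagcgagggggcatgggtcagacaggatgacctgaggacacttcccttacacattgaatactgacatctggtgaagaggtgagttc
Aim2 intronic region, chr1:173409130-173409329: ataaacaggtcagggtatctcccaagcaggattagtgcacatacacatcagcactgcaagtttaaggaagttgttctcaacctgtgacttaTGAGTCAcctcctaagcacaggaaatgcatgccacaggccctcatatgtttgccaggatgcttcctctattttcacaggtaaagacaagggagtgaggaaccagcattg
Ticam1 downstream region, chr17:56265978-56266177: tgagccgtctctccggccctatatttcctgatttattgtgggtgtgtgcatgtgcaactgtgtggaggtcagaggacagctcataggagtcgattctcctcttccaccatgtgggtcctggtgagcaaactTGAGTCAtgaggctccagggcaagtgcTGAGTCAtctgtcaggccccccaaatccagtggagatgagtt
Ticam1 upstream region, chr17:56289404-56289603: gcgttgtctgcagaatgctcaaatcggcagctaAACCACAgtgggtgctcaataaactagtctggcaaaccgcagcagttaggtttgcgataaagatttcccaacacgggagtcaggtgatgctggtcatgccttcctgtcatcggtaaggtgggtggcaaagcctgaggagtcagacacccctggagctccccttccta
Nod1 intronic region, chr6:54926927-54927126: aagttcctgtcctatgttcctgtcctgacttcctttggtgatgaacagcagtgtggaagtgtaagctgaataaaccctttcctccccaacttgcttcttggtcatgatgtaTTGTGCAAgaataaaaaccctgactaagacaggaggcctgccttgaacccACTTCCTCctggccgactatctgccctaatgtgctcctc
Clec5a downstream region, chr6:40573772-40573971: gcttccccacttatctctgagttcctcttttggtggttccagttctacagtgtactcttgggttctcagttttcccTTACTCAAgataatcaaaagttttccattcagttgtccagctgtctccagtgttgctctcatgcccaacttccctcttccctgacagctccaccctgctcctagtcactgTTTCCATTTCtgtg
Nlrc5 intronic region, 5′ part, chr8:94458463-94458662: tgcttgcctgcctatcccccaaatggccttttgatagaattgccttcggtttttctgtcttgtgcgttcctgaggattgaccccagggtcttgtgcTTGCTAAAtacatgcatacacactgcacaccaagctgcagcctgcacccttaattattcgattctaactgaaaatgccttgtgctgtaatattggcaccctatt

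The regions listed at 12 of the 40 genes were mostly higher in dKO. Of the 17 regions, 15 were higher and 2 were lower, so that 88.2% were higher (95% Wilson interval 65.7% to 96.7%, counting error only), whereas 60.3% of all listed regions were higher and 39.7% were lower. Changes of at least 2-fold were seen at 13 higher and 2 lower regions, against a background of 49.6% of listed regions at least 2-fold higher and 35.9% at least 2-fold lower. Split by gene, 10 genes had higher regions only, Nlrc5 had a lower region only, and Ticam1 had a region of each direction. Relative to the median of all listed regions, 13 were higher and 4 lower (76.5% higher, against 50% of all listed regions by construction), the Gsdmd region and the smaller of the Clec5a changes falling on the lower side. The median change was 1.49 at the 17 regions and 0.98 over all listed regions. Among the higher regions alone the medians were 1.49 and 1.58. In dKO the median level was 6.19 on the log2 scale at these regions and 5.59 over all listed regions, and in WT the medians were 4.80 and 5.31. The regions share their 4 libraries and some lie at the same gene, so the interval does not treat biological replicates.

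**Figure D1:**
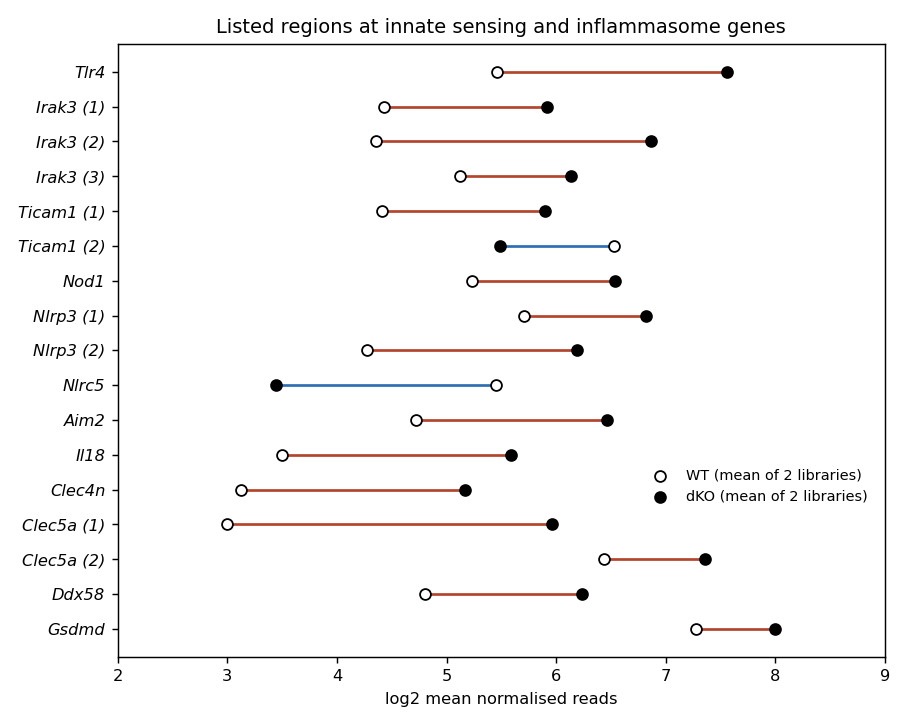
Log2 mean normalised reads in WT (open circles) and dKO (filled circles) at the 17 listed regions, each point the authors' mean of 2 libraries with no error available; red lines join regions that were higher in dKO and blue lines those that were lower, and numbers after a gene name order its regions by position on the chromosome. Only Nlrc5 and the second Ticam1 region have the WT circle to the right.

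The genes were also set beside all protein-coding genes and the chromosomes they lie on. Counting a region for each window it lies in, 13 of the 40 genes (32.5%) had a region, against 35.2% of 21755 protein-coding genes under the same window. The gene bodies had a median length of 14.8 kb, against 17.4 kb for all protein-coding genes. The share of higher regions varied between chromosomes, from 44.8% on chromosome 8 to 82.0% on chromosome 10, where Irak3 lies. With each of the 17 regions given the share of higher listed regions on its chromosome, the mean of these shares was 61.1%. Of the 7750 listed regions within 25 kb of any protein-coding gene, 59.4% were higher. Off chromosome 10, a comparison added after seeing the data, 12 of 14 regions (85.7%) were higher, against 58.4% of 9249 listed regions. Within 100 kb of the 12 genes' regions lay 14 further listed regions, of which 9 were higher and 5 lower, beside 60.3% higher among all listed regions. Among these neighbours, all 4 at Il18 were higher and all 3 at Ticam1 were lower.

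**Figure D2:**
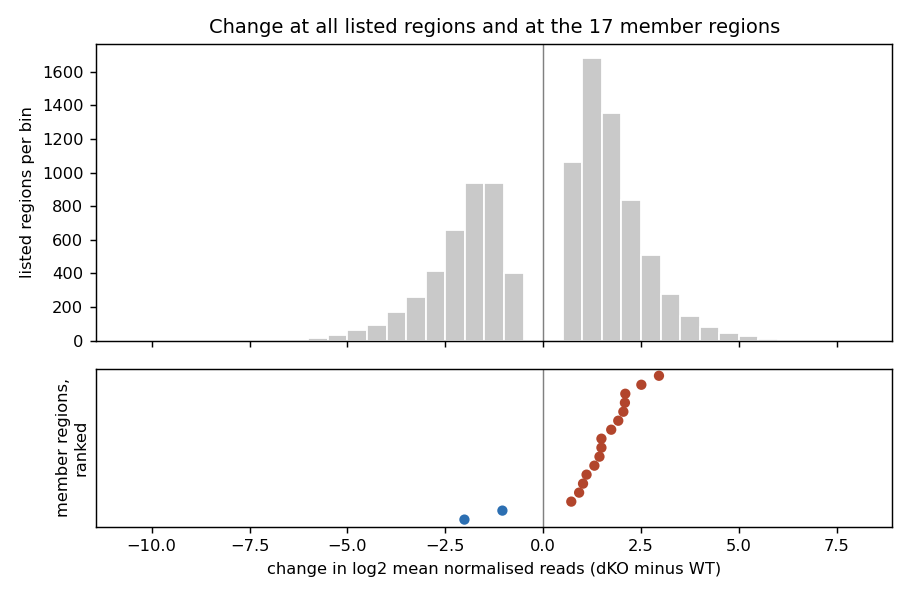
Upper panel, the number of listed regions per bin of 0.5 in the change of log2 mean normalised reads (dKO minus WT), over all 10016 regions; lower panel, the 17 regions at innate sensing and inflammasome genes ranked by change, red for higher and blue for lower in dKO. The 17 points run from -2.01 to 2.96, inside the range of the listed changes, and 15 lie to the right of 0.

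Of the Toll-like receptor genes, including the TLR4 co-receptor gene Ly96, 1 of 9 had a listed region. Tlr4 encodes the receptor for bacterial lipopolysaccharide. Its region (chromosome 4, 66856980 to 66857441) went from 5.46 in WT up to 7.56 in dKO on the log2 scale, a change of 2.10 or 4.29-fold, from 44.0 to 189 normalised reads. The dKO level was at percentile 90.7 of all listed regions. The region lies 29396 bp downstream of the start of the consensus coding (CCDS) transcript and beyond its end, in an intron of a longer annotated Tlr4 transcript only. It holds a pair of AP-1 strings, shown above. Tlr1, Tlr2, Tlr3, Tlr5, Tlr6, Tlr9, Tlr13 and Ly96 had no region, and the nearest listed regions to Tlr13 and Tlr2, at 26178 bp and 40070 bp, were lower in dKO by -1.34 and -1.35.

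Among the adaptors and kinases, Irak3 and Ticam1 of 6 genes had regions, with 4 higher and 1 lower. Irak3 encodes IRAK-M, an inhibitor of Toll-like receptor signalling, and had the most regions of the 40 genes. Its 3 regions were all higher, by 1.02 to 2.51. The largest change was in an intron (chromosome 10, 120151599 to 120152149), from 4.36 in WT to 6.87 in dKO or 5.70-fold, at a region with AP-1 strings. A second intronic region (120163476 to 120163883), with a C/EBP string, changed by 1.02. The remaining one (120136091 to 120136497), with a PU.1 string, lay 5151 bp beyond the 3′ end of Irak3 and nearest to the start of Helb, and changed by 1.49. All lay 37776 bp or more from the CCDS start of Irak3, and the part of the high chromosome 10 share in these values was not tested.

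Ticam1 was the gene with both directions. A region 3060 bp beyond its 3′ end (chromosome 17, 56265895 to 56266259), which holds a pair of AP-1 strings, rose from 4.41 to 5.90, by 1.49 or 2.81-fold. A region 12575 bp upstream (56289361 to 56289646), which lies in an intron of Plin3 and 865 bp from a Plin3 start, fell from 6.53 to 5.49, by -1.04 or 2.06-fold, and holds a RUNX string. The nearest protein-coding starts of these regions were those of Fem1a and Plin3, not of Ticam1. Myd88, the shared adaptor of most Toll-like receptors, and Irak2, Irak4 and Traf6, which act downstream of it, had no region.

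Of the NOD-like receptor, AIM2 and inflammasome effector genes, 5 of 10 had regions, with 5 higher and 1 lower. Nlrp3, which encodes the sensor of the best-known inflammasome, had a region at a start site of its own (chromosome 11, 59542518 to 59542810), the only one of the 17 regions within 1 kb of a CCDS start of its gene. It rose from 4.27 to 6.19, by 1.92 or 3.78-fold, from 19.3 to 73.0 normalised reads, and shares 218 bp with the RefSeq promoter window of Nlrp3 (59542436 to 59542735). A second region 14354 bp upstream (59526636 to 59527214), over a start site of Zkscan17, changed by 1.11. Neither region holds any of the strings in its whole length.

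Aim2 encodes a sensor of cytosolic DNA that also forms an inflammasome. Its region (chromosome 1, 173409036 to 173409423) rose from 4.72 to 6.46, by 1.74 or 3.34-fold, in an intron of the longest annotated transcript and 45931 bp upstream of the nearest CCDS start, and holds an AP-1 string. Nod1, a sensor of bacterial peptidoglycan fragments, had a region (chromosome 6, 54926794 to 54927259) that rose from 5.23 to 6.54, by 1.31 or 2.48-fold, with a C/EBP and a PU.1 string. This region lies 839 bp from the start of a noncoding transcript near the 3′ end of the gene, but 44402 bp from its CCDS start. Gsdmd encodes gasdermin D. Its region (chromosome 15, 75875668 to 75876406), 8260 bp beyond the 3′ end, had the highest levels of the 17 and the smallest change, from 7.28 to 8 on the log2 scale, by 0.72 or 1.65-fold, and holds a PU.1 string in its centre and 2 C/EBP strings outside it.

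Nlrc5, a transactivator of major histocompatibility complex class I genes, was the only one of these genes whose single region was lower. The region (chromosome 8, 94458478 to 94458987) fell from 5.45 in WT to 3.44 in dKO, by -2.01 or 4.03-fold, from 43.7 to 10.9 normalised reads. It lies in an intron of a long transcript, 13776 bp upstream of the nearest CCDS start, on the chromosome with the lowest share of higher regions. No string was found in its central 200 bp, and the C/EBP string shown above lies in its 5′ part. Nod2, Nlrc4, Casp1, Casp4 and Pycard, the last of which encodes the inflammasome adaptor ASC, had no region. The nearest listed region to Casp1 was 978749 bp away.

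Of the interleukin 1 family, Il18 had a region and Il1a and Il1b had none. The region (chromosome 9, 50537313 to 50537620) rose from 3.50 to 5.59, by 2.09 or 4.26-fold. It lies 17207 bp upstream of Il18 in an intron of Bco2, has its nearest protein-coding start at Pts, and holds a RUNX string.

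Of the C-type lectin and TREM receptor genes, which include the adaptor gene Card9, 2 of 8 had regions and all 3 regions were higher. Clec5a, a receptor that signals through the adaptor DAP12, had the largest rise of the 40 genes. A region 852 bp beyond its 3′ end (chromosome 6, 40573700 to 40574042) rose from 3 to 5.96 on the log2 scale, by 2.96 or 7.78-fold, from 8 to 62.2 normalised reads, which is at percentile 89.8 of the listed rises. This region overlaps an exon of the olfactory receptor gene Olfr460, whose start is the nearest, and holds a C/EBP and an IRF string. A second region 8988 bp upstream of Clec5a changed by 0.92. Clec4n encodes Dectin-2, a receptor for fungal mannans, and its region (chromosome 6, 123244217 to 123244616) rose from 3.12 to 5.17, by 2.05 or 4.14-fold, over a coding exon with an AP-1 string. The same region lies 17495 bp from Clec4d, within its window, and was counted for Clec4n only. Clec4d, Clec4e, Clec7a, Card9, Trem1 and Trem3 had no region of their own.

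Of the cytosolic nucleic acid sensing genes, Ddx58 had a region and Ifih1, Mavs and Tmem173 had none. Ddx58 encodes the RNA sensor RIG-I. Its intronic region (chromosome 4, 40233189 to 40233625) rose from 4.80 to 6.24, by 1.44 or 2.71-fold, at 6203 bp downstream of the CCDS start, and holds an AP-1 string. For none of the 17 regions was either mean at or under the floor of 1.43 on the log2 scale, whereas 437 of the listed regions (4.36%) had such a mean.

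Positions about the genes were then compared. By all annotated transcripts, 7 were in introns, 1 over a coding and 1 over a noncoding exon, 4 downstream and 4 upstream of the gene. By CCDS transcripts alone, 8 were inside a transcript and 9 outside, at a median of 14354 bp from the nearest CCDS start. Within 1 kb of a start of any protein-coding gene lay 4 of the 17 regions (23.5%), against 14.9% of all listed regions. A protein-coding start is throughout the start of any annotated transcript of a protein-coding gene, noncoding transcripts included, as at Nod1. The median distance to the nearest such start was 8988 bp, against 14732.5 bp over all listed regions. For 11 regions the nearest protein-coding start was that of the gene itself, and for 6 it was another gene's. Upstream of the nearest CCDS start of their gene lay 6 regions, 4 higher and both lower ones.

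**Figure D3:**
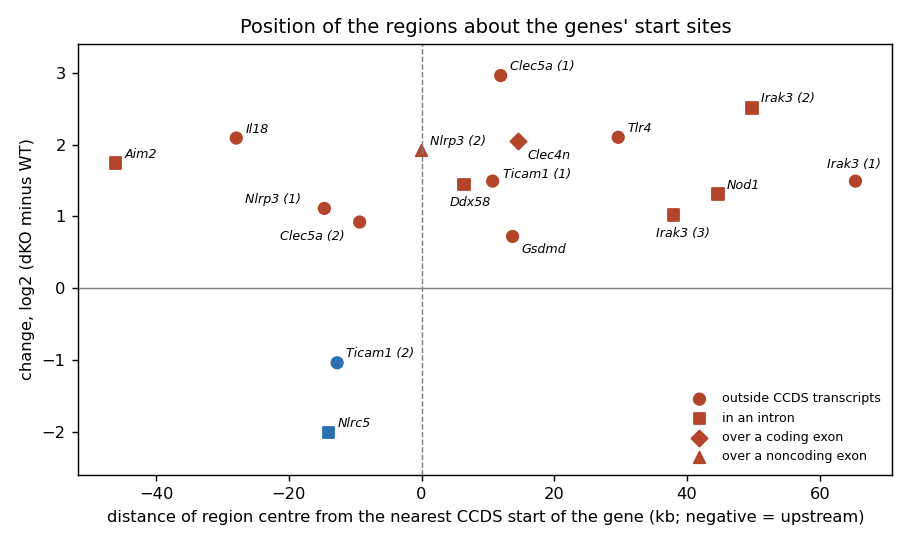
Change in log2 mean normalised reads (dKO minus WT) against the distance in kb of the region's centre from the nearest CCDS start of the gene, negative values being upstream; squares are in introns, the diamond over a coding exon, the triangle over a noncoding exon and circles outside CCDS transcripts, with red for higher and blue for lower in dKO. The points are spread over both sides, with the second Nlrp3 region alone at a start.

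Consensus strings were then searched in the central 200 bp of each region, and 14 of the 17 regions held at least 1 of them. AP-1, a factor of FOS and JUN proteins, had the most matches. The AP-1 string was found in 6 of the 15 higher regions (40.0%, 95% Wilson interval 19.8% to 64.3%), those at Tlr4, Irak3, Ticam1, Aim2, Clec4n and Ddx58, and in 26.7% of all higher and 4.67% of all lower listed regions. The interval of the higher regions contains the share of all higher listed regions. PU.1, the ETS factor of myeloid and B cells, had its string in 4 of the 15 (26.7%, interval 10.9% to 52.0%), against 13.1% of all higher and 3.34% of all lower regions. The C/EBP string was found in 3 of the 15 (20%, interval 7.05% to 45.2%), against 20.1% of all higher and 40.8% of all lower regions. The RUNX string was found in 1 of the 15, against 13.8% of all higher regions, and the IRF string in 1, against 1.92%. The NF-kB string (GGGA and TTTCC with any 1 base between them) was found in 0 of the 15, and in 0.232% of all higher regions. Of the 2 lower regions, 0 held a C/EBP or AP-1 string in the centre and 1 held a RUNX string, which was found in 9.04% of all lower listed regions. Over whole regions the C/EBP string was found in 4 of the 15 higher (26.7%) and 1 of the 2 lower regions, against 35.3% of all higher and 54.3% of all lower listed regions. The whole-region AP-1 share was 40% (6 of the 15 higher), closer to the 36.1% of all higher listed regions than in the centre. For PU.1 it was 26.7% (4 of the 15), against 18% of all higher listed regions.

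**Figure D4:**
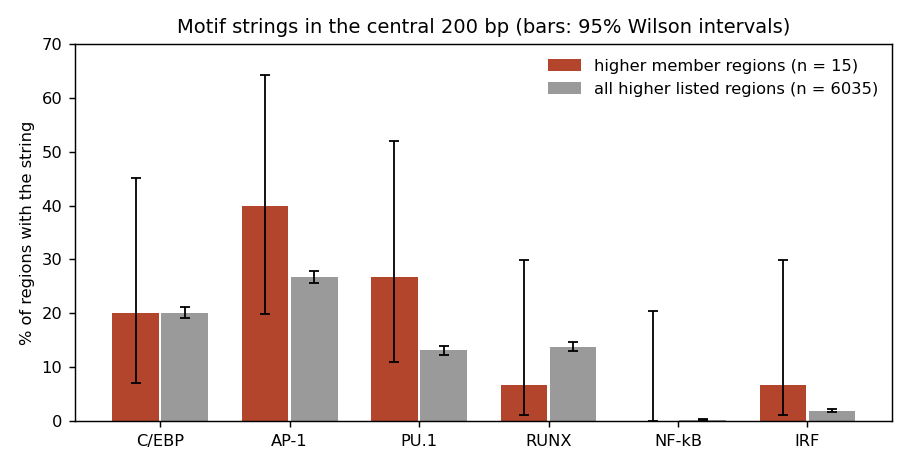
Percent of regions with each consensus string in the central 200 bp, for the 15 higher regions at innate sensing and inflammasome genes (red) and the 6035 higher listed regions (grey); lines are 95% Wilson intervals for counting error. The red AP-1 bar stands at 40.0% and the red C/EBP bar at 20%, and for every string the red interval includes the grey share.

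Of 66 further genes of the same pathways, 29 had regions, with 46 higher and 12 lower and a median change of 0.98. The shares were 43.9% of genes with a region and 79.3% of regions higher, beside 35.2% of all protein-coding genes and 60.3% of all listed regions, and the median equalled that of all listed regions. Those with at least 3 regions were Tyrobp, Unc93b1, Mefv, Tbk1 and Il1r1, which held 24 of the higher regions and 1 of the lower. The other 24 genes held 22 higher and 11 lower regions, the lower ones spread over 9 genes. Tyrobp encodes DAP12, the adaptor through which CLEC5A and TREM receptors signal, and its 7 regions were all higher, by 0.68 to 1.92, although 3 of them were nearest to the start of Hcst or Nfkbid. Unc93b1, needed for transport of the nucleic acid–sensing Toll-like receptors, had 6 regions, all higher by 0.76 to 2.61, of which 3, the largest change included, were nearest to the start of Aldh3b1. Mefv, which encodes the inflammasome sensor pyrin, had 5, all higher by 0.99 to 2.62, of which 1 was nearest to the start of Zfp263. Tbk1, a kinase upstream of interferon regulatory factors, had 4 higher regions on chromosome 10, of which 1 had a WT mean of 0.38, under the floor, and another was nearest to the start of Xpot. Il1r1, the interleukin 1 receptor gene, had 2 higher regions and 1 lower region, and the lower one lay at its start and changed by -1.71.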

How the data were processed

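ATAC-seq libraries were made from sorted cells. Per the methods and the submitters' processing notes, reads were processed with PiGx, aligned to mm10 with Bowtie2, peaks were called with MACS2 and groups were compared with DiffBind (version 2.14.0). Treatment of duplicates, the Tn5 offset and peak merging are not given in the sources used here. Retained duplicates would raise counts at strongly amplified regions. The authors deposited, for each region, mean normalised reads on a log2 scale for WT, for dKO and for both together. Their fold changes, p-values and FDR were not used as results, beyond checking that 0 rows exceeded a corrected P of 0.05. Both deposited files were identical (1 distinct table).

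Regions were assigned with GENCODE release M21 on mm10, and strings were counted in GRCm38.p6 sequence (Python 3.11.15, pandas 2.3.3, pysam 0.24.0, samtools 1.23.1, matplotlib 3.10.9). The assignment and string search were tested on simulated data. RefSeq promoters matched 33 of 40 genes. Every gene is named. The region with the largest change at each gene, and any within 1 kb of its start, have both means. Of the further pathway genes, those with at least 3 regions are named. The genes and lists were chosen with earlier results of these data known. Alternatives were the window, the rule for the nearest start, level filters, centring, the extent of the string search and the C/EBP string. Sequencing depth per library is unknown, and intervals cover counting error only.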

Additional observations from a re-analysis of the deposited data

How the results depend on the processing

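No paired analysis was possible because only group means were deposited, and for the same reason leaving out each replicate was not run. Replicate error, unlisted regions and dKO-LAP* therefore bound what can be said. With windows of 10 kb, 50 kb and the gene body with 2 kb, 92.9%, 73.9% and 90.0% of regions were higher. The 50 kb window added 6 regions, 4 of them lower. The number of regions fell from 17 to 10 with the gene body and 2 kb, and to 11 where the nearest protein-coding start had to be that of the gene (90.9% higher). Centring on the median of all listed regions, 0.98, left a median of 0.51 and 13 higher against 4 lower regions (76.5% higher, against 88.2% uncentred), and turned Gsdmd to a net of -1 (lower). Since listed regions are selected, this median is not a known zero. A C/EBP string was held by 0 of 2 lower regions in the centre, 1 of 2 (50%) over whole regions (54.3% of all lower listed regions) and 33.3% of lower regions with 50 kb windows. For counts, shares and medians, 43 values under alternatives stayed within 1.5 times a count, or within the counting interval of a share or the order-statistic interval of a median, and 3 did not; with 2 lower regions that interval is wide, and the C/EBP share ran from 0% to 50%. Gene by gene, the excess of higher over lower regions gave 34 values equal to the main one, 10 that moved and 1 that reversed. Il18 had no region with 10 kb windows, and Il18 and Ticam1 had none under the nearest-start rule.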
